A study of Mus musculus with 48 samples.

Results

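The genes described here encode the contents and the membrane of the cytotoxic granule: the granzymes Gzma, Gzmb, Gzmc, Gzmk and Gzmm, the pore-forming protein perforin (Prf1), and the granule membrane proteins Nkg7 and Lamp1. Their accessible sites were followed by ATAC-seq, in which the Tn5 transposase cuts open chromatin and the reads mark open sites. A peak was counted to a gene when it overlapped the gene's body, or else when that gene body was the nearest protein-coding one within 100 kb; where a peak overlapped several bodies, the gene with the boundary nearest the peak's middle was taken. By this rule 28 of the 53868 peaks belonged to the 8 genes: 9 to Gzmb, 6 to Prf1, 4 to Gzmk, 2 each to Gzma, Gzmc, Gzmm and Lamp1, and 1 to Nkg7. The membership rule used no measured value.

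Cytotoxic T cells kill by releasing granules onto a target: perforin opens pores in the membrane, and granzymes, which are serine proteases, pass through and cut proteins inside. Granzyme B is the classical inducer of target-cell death, granzyme K is typical of less differentiated memory and of age-associated CD8 T cells, and Lamp1 is a membrane protein of lysosomes in most cell types that reaches the surface when granules fuse. In tumours, CD8 T cells pass from a stem-like, self-renewing state to a terminally exhausted state.

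The cells were Cas9-expressing CD45.1 OT-1 CD8 T cells, whose receptor sees an ovalbumin peptide. Each received a lentivirus that carried 1 guide RNA and an ametrine reporter, was moved into a young or aged mouse, and was recovered from a B16-OVA melanoma 15 days after the tumour was started. The guides are called OTC (the control, used here only as that name), Zfp219 and Dusp5; A and Y in the titles were taken to mean an aged and a young host, and editing at the targets was not measured here. Every group, control included, therefore carries Cas9, the OT-1 receptor, a lentiviral insertion and a single guide RNA, and each library pools cells of several mice, 5000 to 50000 cells.

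Cells were gated by Slamf6 and by Tim-3, which Havcr2 encodes, into 4 states: Tprog (Slamf6 positive, Tim-3 negative), Ttran (both positive), Tterm (Tim-3 alone) and Ttad (neither). Aged hosts gave 24 libraries, 2 for each of 3 guides in each of 4 states. Young hosts gave 24, with 2 for each guide in Tprog and 3 in Ttran and in Tterm, and no young Ttad library was analysed here. That makes 21 groups, 15 of 2 libraries and 6 of 3. Each value is a mean over many cells, so a site that is less open in each cell and a site that is open in fewer cells cannot be told apart.

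Reads in peaks ran from 5638413 to 16159054 in aged libraries and from 6589023 to 29942755 in young ones. Depth differed by guide. Medians for OTC, Zfp219 and Dusp5 were 11220658.5, 15474888.5 and 11639565 in aged libraries. In young ones they were 17748141.5, 11405846 and 17761213. The part of depth in the guide results was not tested. The peaks of 6 CD8 T cell genes (Cd8a, Cd8b1, Cd3e, Cd3d, Cd2, Cd5) summed to 17980 to 22393 normalized reads in every library. Of marker genes of other cells, no peak belonged to Foxp3 (regulatory T), Ms4a1 and Cd79a (B), Csf1r, Lyz2 and Adgre1 (myeloid) or Tyr and Dct (melanoma). Peaks did belong to Cd4 and Zbtb7b (CD4 T), Klrb1c and Ncr1 (NK), Pax5, Itgam, Spi1, Mlana, Pmel, Sox10 and Mitf. The peaks of the sort markers followed the gates in part. Havcr2 peaks summed to 1876 to 2401.5 in Tprog of both ages and to 3084 to 3710 in Ttran and Tterm. In aged Ttad, a Tim-3-negative gate, they summed to 2405.7 to 2847.6, above every Tprog library. Slamf6 peaks, at 789 to 1091.5 in aged Tterm, stood at 1026 to 1546 in aged Ttad, a Slamf6-negative gate. Sample-sheet numbers in the labels restart in each host age, so a separate handling of the ages cannot be told apart from host age.

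The sites differed widely in strength. Per kilobase of peak, averaged over all 48 libraries, the strongest were the peaks that hold the transcription starts of Prf1 (864 normalized reads per kb), Nkg7 (809) and Gzmb (621). The start peaks of Gzmm, Gzmk, Gzma, Lamp1 and Gzmc had 194, 169.8, 166, 144 and 114 per kb. On mm10 coordinates the Prf1 start peak lies at chr10:61296496-61298160, that of Nkg7 at chr7:43436232-43439018, that of Gzmb at chr14:56261701-56263110, that of Gzmc at chr14:56234361-56235285, that of Gzma at chr13:113100973-113102524 and that of Lamp1 at chr8:13158731-13159984. These 6 are also the strongest peak of their gene, per kb and by total normalized reads.

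For Gzmk the peak with the most reads is not at the start: it lies 12.4 kb downstream, past the end of the gene (chr13:113167872-113169220; 328 per kb), beside a second 10.8 kb downstream that holds fewer reads but 335 per kb (chr13:113169708-113170653); another lies 2.5 kb upstream (chr13:113182891-113184097), and the peak at the start is weak (chr13:113180813-113181168). For Gzmm the peak with the most reads lies 2.6 kb inside the gene (chr10:79690761-79692401), at 189 per kb against 194 at the start. Of the 9 Gzmb peaks, 7 stand upstream of the gene, from 13.9 to 48 kb before the start. Both Gzma peaks also overlap the body of Cdc20b, so their assignment to Gzma is uncertain. Exons and introns were not read, because no transcript models of this build were used here.

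The promoters under 5 of the start peaks are printed to show how they differ in sequence: those of Gzmb, Gzmc, Gzmk and Prf1, on which the results below turn, and that of Lamp1, whose peaks went the other way between states. Each line gives the 250 bases before the start from RefSeq (GRCm38.p6, the same coordinates as mm10), 5′ to 3′ on the gene's strand; all 8 genes had an entry. Capitals mark matches on either strand to T-box (TCACAC), RUNX (TGTGGT), AP-1 (TGANTCA), the cyclic-AMP response half-site (TGACG) and the E-box CACGTG, the last added after the sequences were seen.
Gzmb, chr14:56262335-56262584, minus strand: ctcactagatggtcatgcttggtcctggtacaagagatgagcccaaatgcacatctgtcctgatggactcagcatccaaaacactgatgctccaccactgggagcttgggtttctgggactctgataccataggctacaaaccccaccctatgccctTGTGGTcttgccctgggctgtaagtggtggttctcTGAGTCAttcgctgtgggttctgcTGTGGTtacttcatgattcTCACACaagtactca
Gzmc, chr14:56234658-56234907, minus strand: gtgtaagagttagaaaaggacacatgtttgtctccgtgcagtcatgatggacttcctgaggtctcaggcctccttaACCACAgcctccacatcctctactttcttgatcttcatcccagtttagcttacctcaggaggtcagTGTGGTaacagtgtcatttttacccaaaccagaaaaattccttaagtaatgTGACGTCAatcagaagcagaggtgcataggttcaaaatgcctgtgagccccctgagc
Gzmk, chr13:113180966-113181215, minus strand: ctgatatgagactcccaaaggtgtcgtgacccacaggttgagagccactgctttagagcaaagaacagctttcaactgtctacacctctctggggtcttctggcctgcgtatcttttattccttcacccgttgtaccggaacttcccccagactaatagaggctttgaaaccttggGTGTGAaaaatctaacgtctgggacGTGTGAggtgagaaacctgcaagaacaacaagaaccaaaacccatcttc
Prf1, chr10:61297586-61297835, plus strand: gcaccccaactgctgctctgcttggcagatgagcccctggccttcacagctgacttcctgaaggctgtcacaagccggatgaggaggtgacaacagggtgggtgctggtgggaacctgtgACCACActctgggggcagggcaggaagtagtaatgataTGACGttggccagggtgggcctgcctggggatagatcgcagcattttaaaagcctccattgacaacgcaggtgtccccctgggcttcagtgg
Lamp1, chr8:13158911-13159160, plus strand: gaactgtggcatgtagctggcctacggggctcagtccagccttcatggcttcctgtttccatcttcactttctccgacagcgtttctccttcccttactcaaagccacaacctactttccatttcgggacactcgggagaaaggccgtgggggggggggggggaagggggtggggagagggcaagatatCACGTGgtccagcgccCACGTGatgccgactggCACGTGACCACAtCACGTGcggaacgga

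Within these windows Gzmb held 2 RUNX matches, 1 AP-1 match and 1 T-box match, the last of them nearest to the start. Gzmc held 2 RUNX matches and 2 half-sites that overlap as a palindrome, Prf1 held 1 RUNX match and 1 half-site, and Gzmk held 2 T-box matches and no RUNX match. Lamp1 held 4 E-boxes, the second to last of which abuts its 1 RUNX match. Of the promoters not printed, Nkg7 held 1 T-box and 1 RUNX match and Gzma 1 RUNX match; for Gzmm, which has more than 1 listed start, the window before the first start held 1 RUNX match and that before the second 1 T-box and 1 E-box match. Among 32817 promoter windows of the same length, 12.3% held the T-box letters, 14% the RUNX letters, 6.75% AP-1, 17.7% the half-site and 6.02% the E-box. NFAT (GGAAA), in 55.6% of windows, and ETS (CCGGAAG), in 6.9%, were searched too and are not capitalised; ETS was in none of the windows described. A match is a string of letters, not a bound site.

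**Figure D1:**
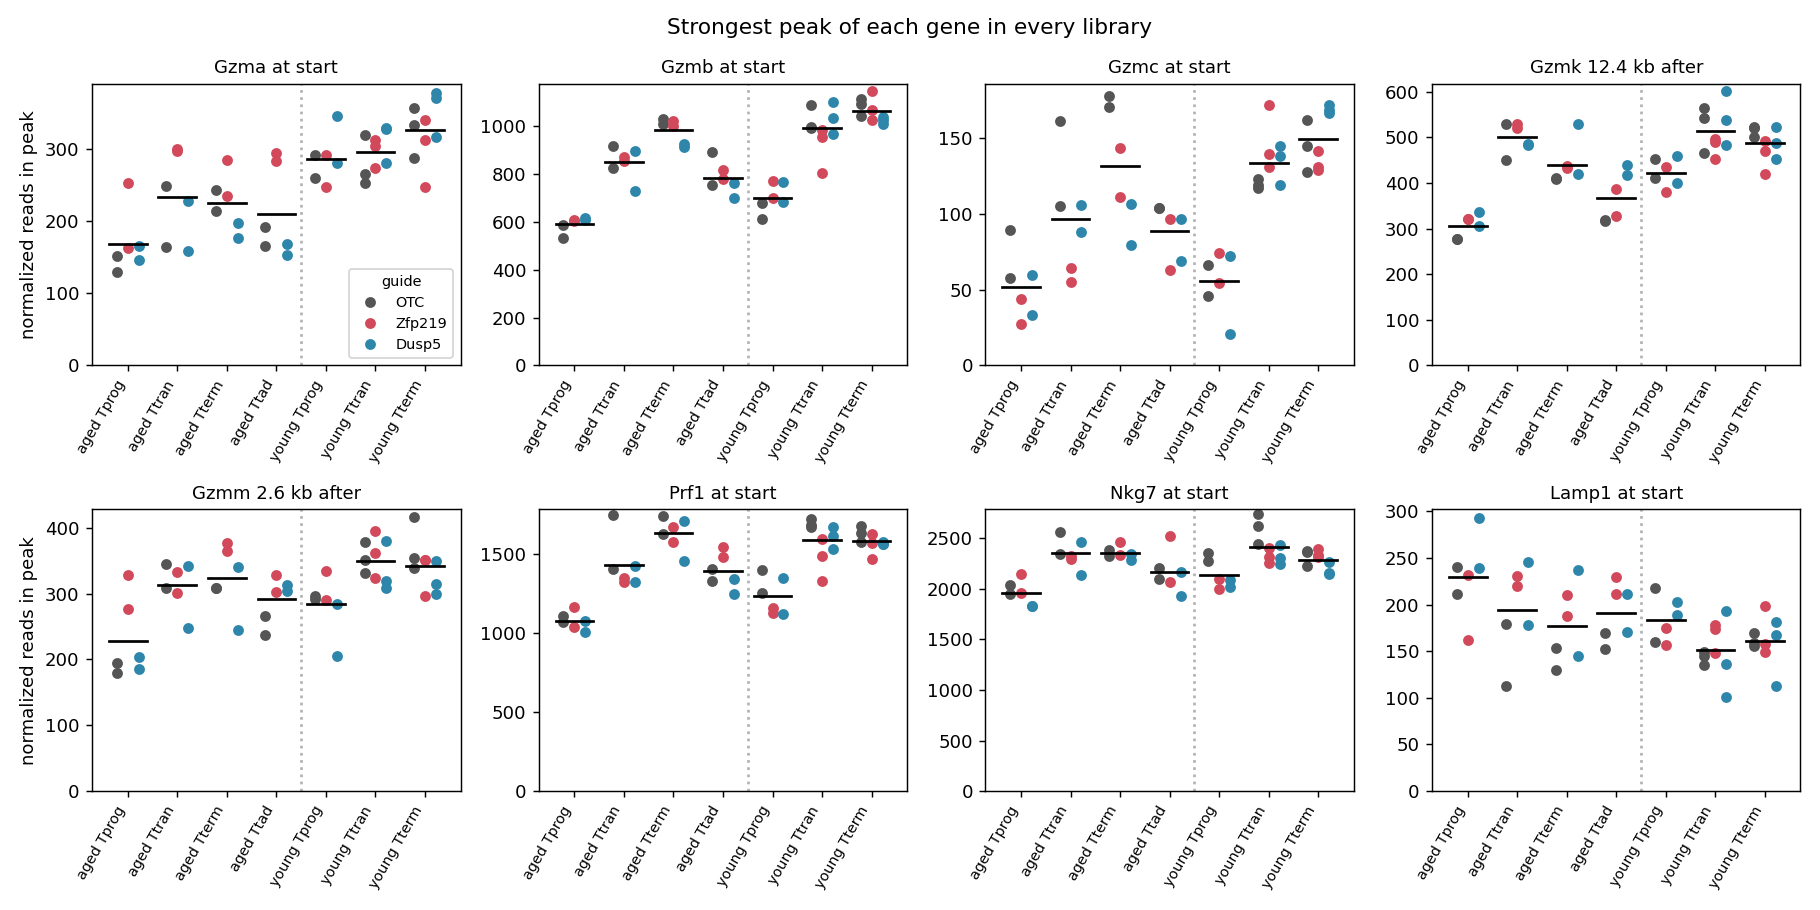
Normalized reads (vertical axes, starting at 0) in the peak with the most reads of each of the 8 genes, by host age and sorted state (horizontal axes), 1 dot per library, coloured by guide, with a black bar at the mean over all guides. The Gzmb start peak lies at 532 to 617 in aged Tprog and at 916 to 1033 in aged Tterm, and Lamp1 is the gene whose dots are highest in Tprog.

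The first question was how the sites change with the sorted state. Comparing Tprog with Tterm, averaged over the 3 guides, most peaks of perforin (5 of 6) and Gzmb (8 of 9) were lower in the progenitor state in each host age, as were 1 of 2 Gzmc peaks in aged and 2 of 2 in young hosts. Of the 2 Lamp1 peaks, 2 were higher in aged and 1 in young hosts. In aged hosts 22 of 28 peaks passed the test (limma on log2(value + 1), adjusted p under 0.05 over all peaks), 2 higher and 20 lower; over all 53868 peaks 35.9% passed, 16.9% higher and 19% lower. In young hosts 23 passed, 2 higher and 21 lower, against 49.3% of all peaks, 24.3% higher and 24.9% lower. The median log2 fold change over the 28 was -0.51 in aged and -0.42 in young hosts, against 0.01 and -0.01 over all peaks. So 78.6% and 82.1% of these peaks passed, nearly all of them lower in Tprog.

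The Prf1 start peak, the strongest of the 28 per kb, ran from 1004 through a median of 1073 to 1161 normalized reads in the 6 aged Tprog libraries and from 1454 through 1647 to 1740.3 in the 6 aged Tterm libraries. The ranges do not touch, and the log2 fold change was -0.60 (SE 0.047, limma adjusted p = 5.07e-20). In young hosts the ranges were 1116 to 1395 in 6 Tprog and 1466 to 1672 in 9 Tterm libraries, again apart, at -0.36 (SE 0.043, limma adjusted p = 5.68e-12).

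Of the 5 weaker Prf1 sites, 3 had larger fold changes than the start peak in both ages. At the peak 11.6 kb upstream, aged Tprog held 34.8 to 71.8 and aged Tterm 124 to 169 normalized reads, a log2 fold change of -1.34 (SE 0.18); young Tprog held 29.4 to 69.7 and young Tterm 107 to 173, at -1.55 (SE 0.16). The peak 5.7 kb downstream, inside the gene, changed by -1.28 in aged (SE 0.20) and -1.86 in young hosts (SE 0.18), the largest fall among the 28 in young hosts. In aged hosts the largest was the -1.38 shared by a Gzmb and a Gzmc peak, below. The peaks 7.2 kb upstream and 8.6 kb downstream were lower too, at -0.65 (SE 0.22) and -0.21 (SE 0.070) in aged and -1.19 (SE 0.20) and -0.24 (SE 0.064) in young hosts. These aged calls were lost without 2 and 5 single libraries, with limma adjusted p up to 0.134 without OTC Tterm replicate 1 and 0.082 without Dusp5 Tterm replicate 1. The last Prf1 peak, 10.7 kb downstream, did not pass in either age, at -0.06 (SE 0.19) and -0.0018 (SE 0.17).

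The Gzmb peaks were low in Tprog throughout. All 9 had negative fold changes in both ages, and 8 passed in each, although the aged call 41.9 kb upstream (-0.58) was lost without 6 single libraries, with a limma adjusted p of 0.125 without OTC Tprog replicate 2. At the start peak, aged Tprog ran from 532 through a median of 605 to 617 normalized reads and aged Tterm from 916 through 1006 to 1033; young Tprog ran from 611 through 692 to 770.1 and young Tterm from 1010.4 through 1043 to 1148. The log2 fold changes were -0.73 in aged (SE 0.055, limma adjusted p = 3.92e-21) and -0.60 in young hosts (SE 0.050, limma adjusted p = 6.63e-19), with no overlap in either.

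The upstream peak at 13.9 kb had the largest fold changes of the Gzmb sites. It held 68.3 to 110.9 normalized reads in aged Tprog, 139 to 211.3 in aged Ttran and 211.4 to 259.7 in aged Tterm, so that these 3 states did not overlap, although Ttran and Tterm all but met. Tprog against Tterm gave -1.38 in aged (SE 0.12) and -1.32 in young hosts (SE 0.11). In each of the 6 pairings of a guide with a host age, every Tprog library lay below every Tterm library at this peak, at the start peak and at the peaks 2.0, 19.5, 34.6 and 41.9 kb away. At the peaks 22.2, 25.7 and 48 kb upstream this held in 4, 5 and 4 of the 6 pairings. Each pairing sets 2 libraries against 2 or 3, and the share of all peaks that separate in this way was not counted.

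Gzmb lies at the end of a cluster of granzyme genes on chromosome 14, and all but 1 of the peaks of its neighbours were lower in Tprog in both ages. The exception was the second Gzmc peak, 6.1 kb upstream of the Gzmc start, at -0.49 (SE 0.24, limma adjusted p = 0.101) in aged and -0.87 (SE 0.22) in young hosts. The Gzmc start peak held 27.0 to 89.5 normalized reads in aged Tprog and 79.2 to 178 in aged Tterm, which overlap, and 20.4 to 74.4 in young Tprog against 127 to 171 in young Tterm, which do not. Fold changes were -1.38 (SE 0.18) and -1.51 (SE 0.16), with limma adjusted p = 1.92e-10 and 1.07e-13. The 9 peaks of Gzmd, Gzme, Gzmf and Gzmn, further granzymes of the cluster that are not among the 8 genes, were all lower in Tprog in both ages (median -2.92 aged, -2.65 young); Gzmg had no peak.

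Their sites were close to shut in the progenitor state. A Gzmf peak 50.9 kb beyond the Gzmb start held a mean of 6.57 normalized reads in aged Tprog, with a lowest library at 0, and 114 in aged Tterm, a fitted log2 fold change of -4.54 (SE 0.30) that depends on the pseudocount at such low values. In the opposite direction from the Gzmb start, away from the cluster, the Gzmb peaks changed by -0.29 to -1.38. The other Gzmf peak, 57.3 kb beyond the Gzmb start, was open in both states (mean 125 and 216 in aged hosts) and changed by -0.80 (SE 0.12).

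**Figure D2:**
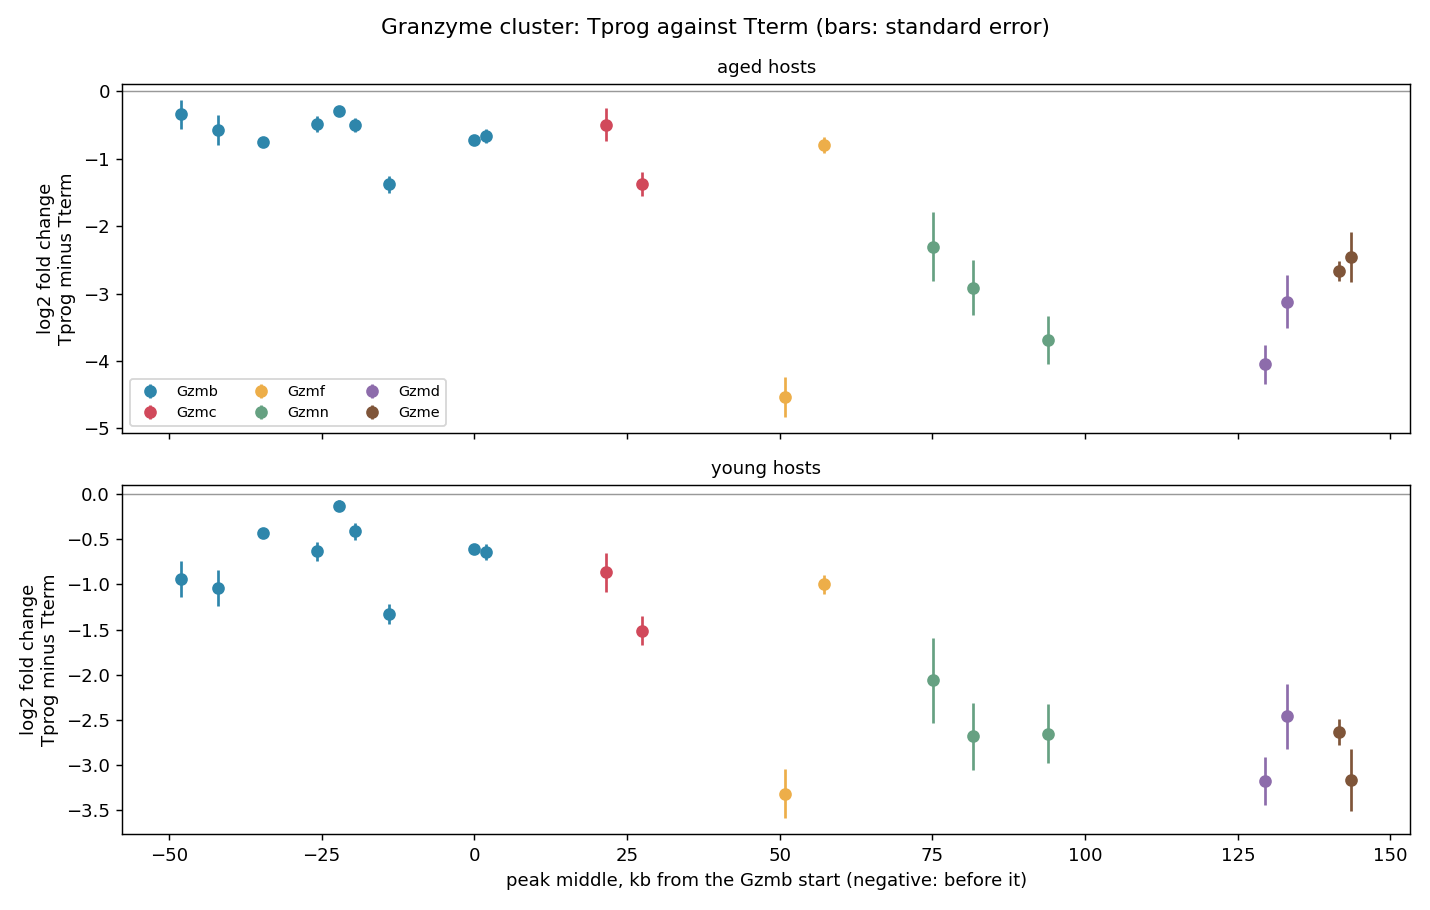
Log2 fold change of Tprog minus Tterm (vertical axes, on the log2(value + 1) scale) for each peak of Gzmb, Gzmc and their 4 cluster neighbours with peaks, against distance of the peak's middle from the Gzmb start in kb (horizontal axis, positive in the direction of transcription); dots are estimates, bars their standard error, and the panels are aged and young hosts. All 20 dots lie below 0, and the lowest is the Gzmf peak at 50.9 kb, at -4.54 in aged hosts.

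Gzmk, the granzyme of less differentiated cells, shared the low value in Tprog at its 3 stronger peaks but not at its start. The peak 12.4 kb downstream held 277 to 335 normalized reads in aged Tprog, 451 to 529.6 in aged Ttran and 407 to 528 in aged Tterm. Tprog lay apart from Ttran and Tterm, with a log2 fold change against Tterm of -0.52 (SE 0.072, limma adjusted p = 2.74e-09), while in young hosts it was -0.21 (SE 0.066, limma adjusted p = 0.00653) and the ranges, 379.8 to 459 and 420.3 to 523, overlap. The peaks 10.8 kb downstream and 2.5 kb upstream changed by -0.63 (SE 0.087) and -0.51 (SE 0.090) in aged and by -0.33 (SE 0.079) and -0.55 (SE 0.082) in young hosts. The weak start peak had 15.9 to 81.0 in aged Tprog and 25.1 to 47.4 in aged Tterm, and its fold changes of 0.24 in aged and 0.47 in young hosts did not pass.

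The Gzma start peak was lower in aged Tprog (129 through a median of 157 to 253) than in aged Tterm (177 through 224 to 285), with overlap, at -0.44 (SE 0.10, limma adjusted p = 0.000373). In young hosts the difference of -0.19 (SE 0.095) missed the threshold at a limma adjusted p of 0.0938. The weaker Gzma peak, 6.5 kb downstream, was lower in young Tprog, at -1.22 (SE 0.29), and gave -0.62 (SE 0.32, limma adjusted p = 0.121) in aged hosts. Gzmm, a granzyme also found in innate lymphocytes, split by site. Its peak with more reads, inside the gene, was lower in Tprog (-0.53 aged, SE 0.090; -0.27 young, SE 0.082, adjusted p = 0.0595 by limma without the young Dusp5 Tprog replicate 1). Its start peak was higher in young Tprog, at 165 to 250.02 normalized reads against 95.0 to 145 in young Tterm without overlap, higher by 0.67 on the log2 scale (SE 0.13, adjusted p = 4.48e-06 by limma), and gave -0.05 (SE 0.14) in aged hosts.

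Nkg7, a granule membrane protein needed for release in cytotoxic lymphocytes, was open in every library, from 1826 to 2741 normalized reads. Its change was small: -0.27 in aged hosts (SE 0.038), where Tprog held 1826 to 2148 and Tterm 2289 to 2462 without overlap, and -0.10 in young hosts (SE 0.035), where the adjusted p of 0.0149 by limma rose to 0.0575 without the young Zfp219 Tprog replicate 2. Lamp1 went the other way. Its peak 3.0 kb inside the gene held 82.5 to 144 in aged Tprog and 48.9 to 88.3 in aged Tterm, a small overlap, at 0.69 (SE 0.19), and it was higher by 0.63 (SE 0.18) in young Tprog. Its start peak was higher by 0.38 in aged Tprog (SE 0.13, limma adjusted p = 0.0138), a call lost on leaving out 3 libraries in turn, with 0.26 and an adjusted p of 0.134 without the aged Dusp5 Tterm replicate 2.

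**Figure D3:**
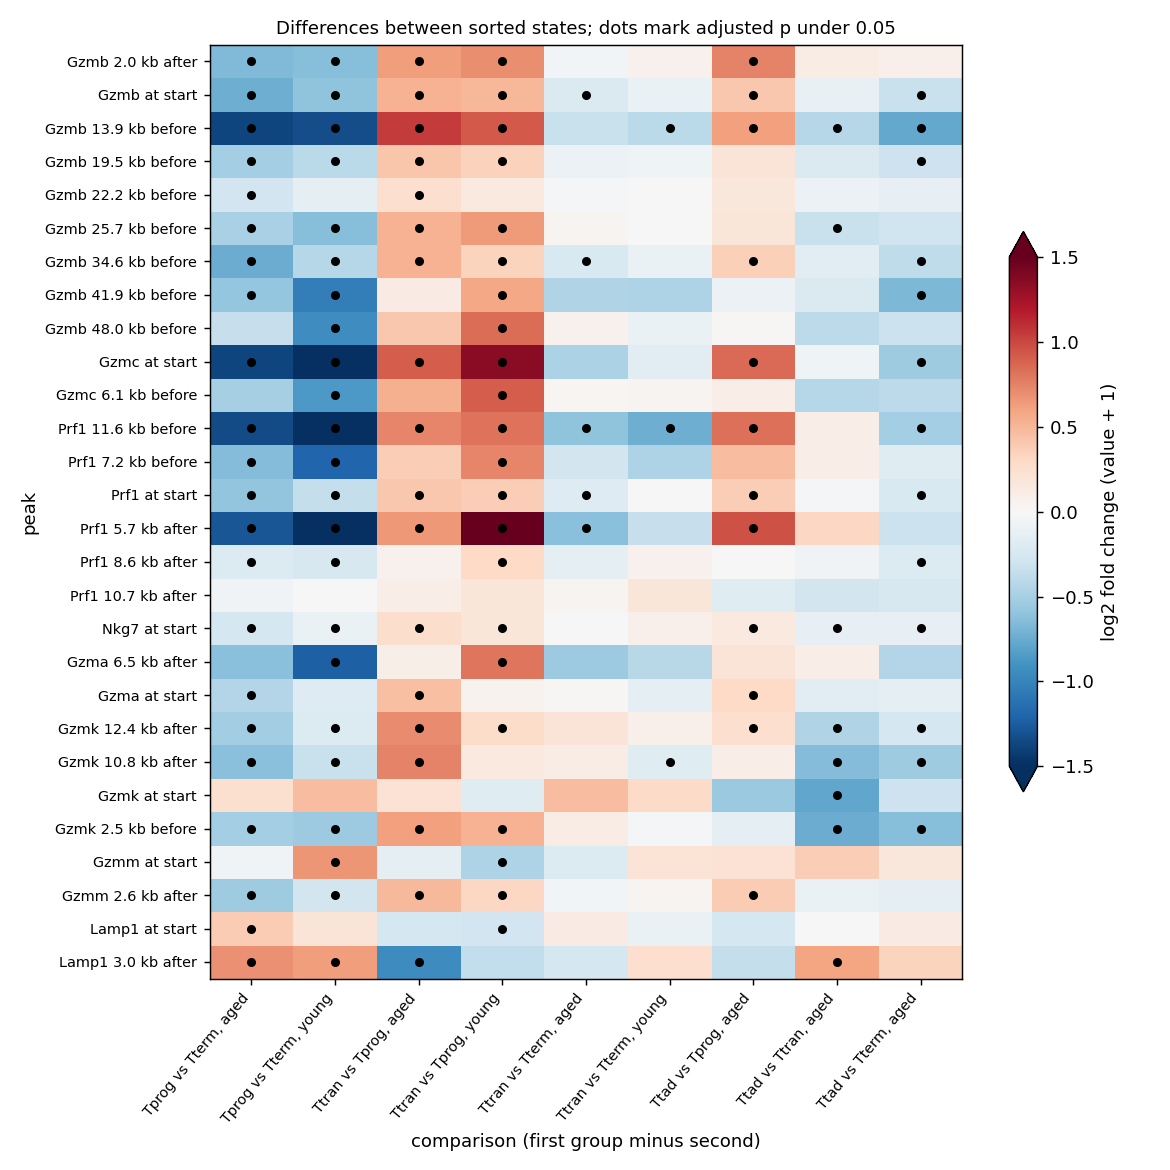
Log2 fold change on the log2(value + 1) scale (colour, limited to -1.5 to 1.5) of each of the 28 peaks (rows, named by distance from the gene's start) in the 9 comparisons of sorted states (columns, first group minus second); a dot marks a limma adjusted p under 0.05. In the columns of Tprog against Tterm, 20 peaks in aged and 21 in young hosts are blue with a dot, and the red dotted cells are both Lamp1 peaks in aged hosts and a Gzmm and a Lamp1 peak in young hosts.

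Marker lists of other cells also moved with the state. The peaks of the CD4 list (Cd4 and Zbtb7b) summed to 1027 to 1332 in aged Tprog and 1386 to 1733 in aged Tterm, those of the NK genes Klrb1c and Ncr1 to 2651 to 2861 and 2156 to 2437, and those of Pax5, the only B cell gene with peaks, to 428 to 608 and 285 to 369.7. The melanoma list, of which 4 of 6 genes had peaks, summed to 1126 to 1390.4 in aged Tprog and 913 to 1256 in aged Tterm, and the myeloid list to 1308 to 1408 and 1300.4 to 1632. In young Tprog and Tterm the CD4 list summed to 1076 to 1472.5 and 1442 to 1759.8, the NK list to 2695 to 2928 and 2210.2 to 2583, Pax5 to 516 to 672 and 279.9 to 396, the melanoma list to 1423.5 to 1633 and 1242 to 1328 and the myeloid list to 1898 to 2094 and 1667 to 1952. The NK, Pax5 and melanoma sums did not overlap between these young states. Their part in the results was not tested.

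More of the 28 peaks differed between Tprog and Ttran than between Ttran and Tterm. Against Tprog, 18 of 28 peaks differed in aged Ttran, 17 higher and 1 lower (29.9% of all peaks, 16.6% higher and 13.2% lower), and 22 in young Ttran, 20 higher and 2 lower (38.4%, 19.1% and 19.3%). The highest rises were 1.04 (SE 0.12) at the Gzmb peak 13.9 kb upstream in aged hosts and 1.51 (SE 0.18) at the Prf1 peak 5.7 kb downstream in young hosts. The falls were at Lamp1 in aged hosts, -0.94 (SE 0.19) at the peak 3.0 kb inside, and at the start peaks of Gzmm, -0.47 (SE 0.13), and Lamp1, -0.29 (SE 0.12), in young hosts. The last of these (limma adjusted p = 0.0414) was lost with quantile normalization, with edgeR, with the replicate block, with the compared groups alone and without 8 single libraries, up to 0.192 without OTC Tprog replicate 2.

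Between Ttran and Tterm fewer peaks differed. In aged hosts 17.9% of the 28 passed, against 7.71% of all peaks, and in young hosts 10.7%, against 20.5%. At the Prf1 peak 11.6 kb upstream the aged means were 55.7 normalized reads in Tprog, 93.2 in Ttran and 140 in Tterm. In aged hosts 5 peaks were lower in Ttran and 0 higher (7.71% of all peaks, 3.35% lower and 4.36% higher): the start peaks of Gzmb, -0.21 (SE 0.055), and Prf1, -0.19 (SE 0.047), the Gzmb peak 34.6 kb upstream, -0.23 (SE 0.065), and the Prf1 peaks 11.6 kb upstream, -0.61 (SE 0.18), and 5.7 kb downstream, -0.63 (SE 0.20). The count rests on single libraries: it was 1 without Dusp5 Ttran replicate 2, 2 without each of OTC Tterm replicate 1, OTC Ttran replicate 1, Zfp219 Tterm replicate 1 and Zfp219 Ttran replicate 1, and 3 without Dusp5 Tterm replicate 2. In young hosts 3 were lower and 0 higher (20.5% of all peaks, 8.98% lower and 11.6% higher), at the Prf1 peak 11.6 kb upstream (-0.73, SE 0.14), the Gzmb peak 13.9 kb upstream (-0.41, SE 0.10) and the Gzmk peak 10.8 kb downstream (-0.19, SE 0.071). The Gzmk call (limma adjusted p = 0.0486) was lost with quantile normalization, with edgeR and without 14 single libraries. Its limma adjusted p rose to 0.12 without OTC Tterm replicate 2, and the count was 6 without Zfp219 Ttran replicate 1. Of the 9 peaks of the cluster neighbours Gzmd, Gzme, Gzmf and Gzmn, 5 were lower and 0 higher in aged Ttran than in aged Tterm (median -1.18). In young hosts 7 were lower and 0 higher (median -0.87), with the same shares of all peaks as above.

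The double-negative Ttad cells of aged hosts lay between Tprog and Tterm at the start peaks of perforin and granzyme B, but not at every peak of these genes: against Tprog 3 of 6 Prf1 and 4 of 9 Gzmb peaks passed, all higher. The Prf1 peak 8.6 kb downstream had a mean of 408.6 normalized reads in Ttad and 408 in Tprog, and the Gzmb peak 2.0 kb downstream 296 in Ttad and 281 in Tterm. The Prf1 start peak held 1247 to 1539 normalized reads in Ttad, above every Tprog library, with a log2 fold change of 0.37 against Tprog (SE 0.047) and -0.23 against Tterm (SE 0.047). The Gzmb start peak held 702 to 894, above every Tprog library and below every Tterm library, at 0.40 (SE 0.055) and -0.33 (SE 0.055). Over the 28 peaks, 12 were higher and 0 lower in Ttad than in Tprog (18.1% of all peaks passed, 10.3% higher and 7.83% lower), and 0 were higher and 13 lower than in Tterm (16.5%, 7.4% higher and 9.06% lower). That second count fell to 8 without Dusp5 Ttad replicate 2 or Zfp219 Tterm replicate 1. The largest falls against Tterm were -0.77 (SE 0.12) at the Gzmb peak 13.9 kb upstream and -0.67 (SE 0.22) at that 41.9 kb upstream, the latter lost without 5 single libraries (limma adjusted p = 0.233 without Zfp219 Ttad replicate 2), and the largest rise over Tprog was 0.96 (SE 0.20) at the Prf1 peak 5.7 kb downstream.

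Gzmk was lower in Ttad than in Ttran and Tterm. Against Tterm 3 of 4 Gzmk peaks were lower and 0 higher (median log2 fold change -0.42). Against Tprog 1 was higher and 0 lower (median -0.02). Against Ttran the median was -0.70. All 4 Gzmk peaks were lower in Ttad: the peak 10.8 kb downstream held 129 to 265 normalized reads in Ttad and 268 to 369 in Ttran without overlap (-0.65, SE 0.087, limma adjusted p = 1.17e-08), and the one 12.4 kb downstream held 315 to 439.5 and 451 to 529.6 (-0.45, SE 0.072). The peak 2.5 kb upstream fell by 0.75 (SE 0.090) and the start peak by 0.77 (SE 0.23), the latter call lost with the compared groups alone and without 3 single libraries, with an adjusted p of 0.261 by limma without OTC Ttran replicate 1. Across the 28 peaks 8 differed, 1 higher and 7 lower (13.8% of all peaks, 5.79% and 7.98%), and 5 did without Dusp5 Ttran replicate 1, OTC Ttad replicate 1 or Zfp219 Ttad replicate 1. The 1 higher was the Lamp1 peak 3.0 kb inside, at 0.59 (SE 0.19), lost without 6 single libraries, with 0.45 and an adjusted p of 0.161 without Zfp219 Ttran replicate 1. The lower peaks outside Gzmk were Gzmb 13.9 kb upstream, -0.43 (SE 0.12), Gzmb 25.7 kb upstream, -0.34 (SE 0.12), and Nkg7, -0.12 (SE 0.038), the last 2 of which were lost with quantile normalization and without 9 and 5 single libraries, up to 0.136 without OTC Ttad replicate 1 and 0.232 without Zfp219 Ttad replicate 1. No Prf1 peak was called between Ttad and Ttran.

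The next question was host age. In OTC control cells, averaged over Tprog, Ttran and Tterm, 17 of 28 peaks differed between aged and young hosts, 3 higher and 14 lower in aged (36.5% of all peaks, 17.3% and 19.1%). All 4 Gzmk peaks and both Gzma peaks were among the lower. The Gzmk peak 10.8 kb downstream ran from 139 through a median of 231 to 320.4 normalized reads in 6 aged libraries and from 370.4 through 399 to 492 in 8 young ones. The groups do not overlap, and the log2 fold change was -0.92 (SE 0.082, limma adjusted p = 5.19e-17).

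At the Gzmk peak 2.5 kb upstream, aged libraries held 178 to 296 and young ones 349 to 601, also apart, at -0.95 (SE 0.085). At the weak Gzmk start peak they held 11.2 to 52.6 and 63.7 to 125, apart again, at -1.75 (SE 0.22), the largest difference of the 28. The 12.4 kb peak differed by -0.35 (SE 0.068) and its ranges, 277 to 529.5 and 409.8 to 565, overlap. The Gzma start peak held 129 through 189 to 249 in aged and 252 through 289 to 356 in young libraries, just apart, at -0.65 (SE 0.098, limma adjusted p = 5.995e-08). The weaker Gzma peak, 6.5 kb downstream, held 6.38 to 31.6 and 14.5 to 49.5, at -1.28 (SE 0.30).

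Gzmb differed less and not uniformly. Its start peak was lower in aged cells by 0.17 on the log2 scale (a fold change of -0.17, SE 0.052, adjusted p = 0.00491 by limma), as were the upstream peaks at 13.9, 22.2 and 34.6 kb (-0.35, -0.23 and -0.38), but the peak 19.5 kb upstream was higher, at 0.32 (SE 0.097). The first 2 of these upstream calls were lost without young OTC Tprog replicate 2, with limma adjusted p of 0.0842 and 0.06. Prf1 also split, with its start peak at -0.11 (SE 0.044, adjusted p = 0.0351 by limma, lost without 6 single libraries, up to 0.316 without OTC Ttran replicate 1 of aged hosts) and its peak 5.7 kb downstream at 0.98 (SE 0.19): 68.3 to 193 normalized reads in aged and 25.1 to 107 in young libraries, with overlap. Both Gzmm peaks were lower in aged cells, -0.59 (SE 0.13) at the start and -0.34 (SE 0.085) inside. Nkg7 gave -0.09 (SE 0.036), a call lost without 7 single libraries, up to an adjusted p of 0.151 by limma without aged OTC Ttran replicate 2. Lamp1 was higher inside the gene, 0.79 (SE 0.18), with 0.03 at the start.

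Beside this, the myeloid marker list, of which Itgam and Spi1 have peaks and Csf1r, Lyz2 and Adgre1 have none, summed to 1308 to 1473 in the aged and 1667 to 1937 in the young OTC libraries, and its part in the result was not tested. CD8 marker peaks summed to 19953 to 20492 and 19943 to 22393.

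The difference between Tprog and Tterm was itself tested between ages, and it was more negative in aged hosts at 5 peaks and less so at 0 (11.8% of all peaks, 7.31% and 4.54%). The peaks were the Prf1 start (a difference of log2 fold changes of -0.23, SE 0.064), Gzmb 34.6 kb upstream (-0.32, SE 0.088), Gzmk 12.4 kb downstream (-0.31, SE 0.098), Nkg7 (-0.17, SE 0.052) and the Gzmm start (-0.72, SE 0.19). At the Gzmm start the young difference was 0.67 and the aged one -0.05. With quantile normalization the Prf1 and Nkg7 calls were lost (limma adjusted p of 0.0704 and 0.803), and the Gzmk call was lost with the replicate block and without 5 single libraries, up to 0.0811 without aged Dusp5 Tterm replicate 1.

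**Figure D4:**
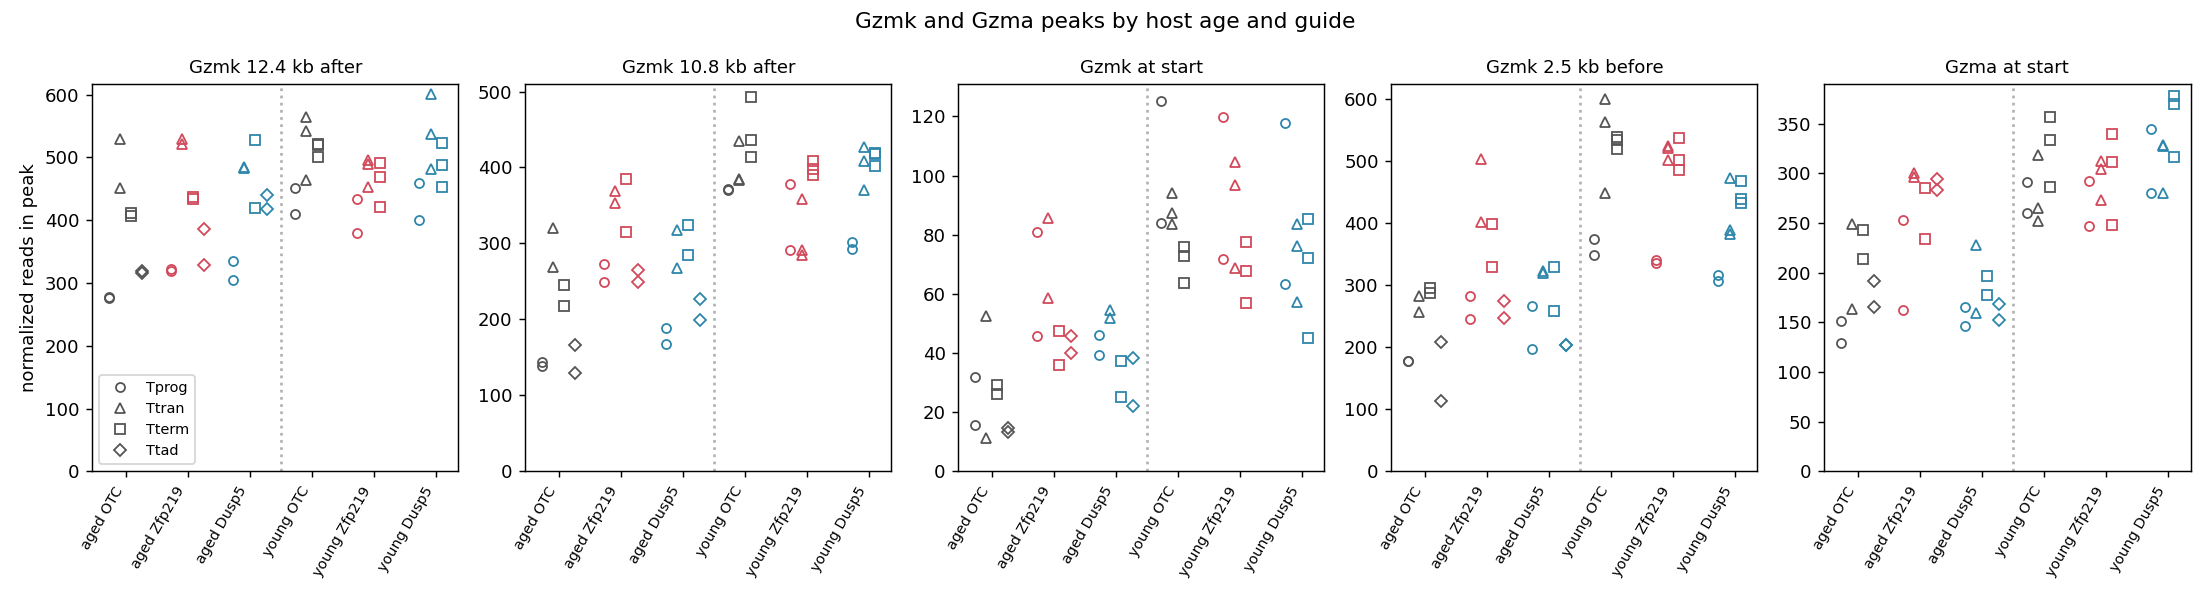
Normalized reads (vertical axes, starting at 0) in the 4 Gzmk peaks and the Gzma start peak by host age and guide (horizontal axes), 1 symbol per library, its shape giving the sorted state. At the Gzmk peak 10.8 kb downstream the aged OTC libraries reach 320.4 at most, the aged Zfp219 libraries start at 249, and the young OTC libraries start at 370.4.

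The guides were then compared with OTC. The same OTC libraries of Tprog, Ttran and Tterm also make the host-age comparison, so the age and guide results are not independent. Zfp219 encodes a zinc-finger transcription factor, and in aged hosts, averaged over the 4 states, its guide went with higher values at 3 of 4 Gzmk and 1 of 2 Gzma peaks and lower values at 1 of 2 Gzmc and 2 of 6 Prf1 peaks. Of 28 peaks, 11 differed, 8 higher and 3 lower (25.8% of all peaks, 12.1% and 13.7%), so these sites passed at 39.3%. Only the share that rose exceeded that of all peaks, while the share that fell was below it. The count was 10 to 14 when single libraries were left out.

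At the Gzmk peak 10.8 kb downstream, OTC libraries held 139 and 145 normalized reads in Tprog, 269 and 320.4 in Ttran, 218 and 245 in Tterm and 129 and 166 in Ttad. Zfp219 libraries held 273 and 249 in Tprog, 353 and 369 in Ttran, 315 and 385 in Tterm and 249 and 265 in Ttad. In each of the 4 states both Zfp219 libraries exceeded both OTC libraries, and the log2 fold change was 0.64 (SE 0.075, limma adjusted p = 3.01e-11).

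The Gzmk peak 2.5 kb upstream rose by 0.59 (SE 0.078) and the start peak by 1.25 (SE 0.20), from 11.2 through a median of 21 to 52.6 in 8 OTC libraries to 35.8 through 46.6 to 85.7 in 8 Zfp219 libraries. The Gzmk peak 12.4 kb downstream had 0.14 (SE 0.063), with a limma adjusted p of 0.0844. The Gzma start peak held 129 through 179 to 249 in OTC and 162 through 284 to 300.2 in Zfp219, with 2 Zfp219 libraries, a Tprog one at 162 and a Tterm one at 234, inside the OTC range, at 0.49 (SE 0.090, limma adjusted p = 1.01e-05).

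Among the falls, the Gzmc start peak held 89.5 and 57.7 in OTC Tprog, 105 and 161 in Ttran, 169.97 and 178 in Tterm and 104 and 103 in Ttad. With Zfp219 the same states held 27.0 and 43.7, 64.3 and 54.7, 143 and 111, and 62.7 and 96.3. Every Zfp219 library lay below both OTC libraries of its state, and the fold change was -0.76 (SE 0.15, limma adjusted p = 5.79e-05). The Prf1 peak 5.7 kb downstream fell by 0.79 (SE 0.17) and that 8.6 kb downstream by 0.32 (SE 0.061). Of the other rises, the Gzmb peaks 13.9 and 34.6 kb upstream had 0.43 (SE 0.11) and 0.25 (SE 0.056) and the Gzmm peak inside the gene 0.31 (SE 0.078). The start peaks of Gzmb and Prf1, which did not pass, gave 0.01 (SE 0.048) and -0.03 (SE 0.041), and Nkg7 0.02 (SE 0.033). The Lamp1 start peak was higher by 0.34 (SE 0.11, limma adjusted p = 0.0148), lost without 2 single libraries, up to 0.087 without OTC Ttran replicate 2.

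In young hosts the Zfp219 guide gave 6 calls, 2 higher and 4 lower (7.07% of all peaks, 1.92% and 5.15%), and 3 without any one of 5 libraries (OTC Tprog replicate 2, OTC Tterm replicate 3, OTC Ttran replicate 2, and Zfp219 Tterm replicates 2 and 3). The 2 higher were the Lamp1 peak inside the gene, 0.81 (SE 0.17), and the Gzmb peak 41.9 kb upstream, 0.57 (SE 0.19), the latter lost with quantile normalization, with the replicate block and without 11 single libraries, up to an adjusted p of 0.254 by limma without Zfp219 Tprog replicate 2. The Prf1 start peak was lower, -0.16 (SE 0.041), but with quantile normalization it had -0.09 and an adjusted p of 0.223 by limma, and Nkg7, at -0.11, likewise lost its call, with -0.02 and 0.776. The largest fall among the called peaks was -0.31 (SE 0.089) at the Gzmb peak 2.0 kb downstream. That call was lost without 3 single libraries, with a log2 fold change of -0.29 without Zfp219 Tprog replicate 1. A Prf1 peak that did not pass gave -0.44. The Gzmk peak 10.8 kb downstream had -0.23 (SE 0.076), lost with quantile normalization and without 13 single libraries, up to 0.263 without Zfp219 Tprog replicate 2.

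The difference between ages in the Zfp219 effect was tested directly, over Tprog, Ttran and Tterm of both ages and so without aged Ttad. It passed at 11 peaks, 7 higher and 4 lower in aged hosts (9.11% of all peaks, 4.09% and 5.01%), or 7 without aged OTC Tterm replicate 1, aged Zfp219 Tterm replicate 2 or young OTC Tprog replicate 2. At Gzmk it was 0.82 (SE 0.12) for the peak 10.8 kb downstream, 0.61 (SE 0.12) for the one 2.5 kb upstream and 1.22 (SE 0.31) at the start, the last with an adjusted p of 0.0525 by limma without aged OTC Ttran replicate 2. At the Gzmc start it was -1.01 (SE 0.24). At the Gzma start it was 0.45 (SE 0.14, limma adjusted p = 0.02675), lost without 8 single libraries, up to 0.129 without aged Zfp219 Tprog replicate 1.

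Dusp5 encodes a phosphatase of the ERK kinase pathway. Its comparison uses the same OTC libraries as that of Zfp219, so the results are not independent of each other and are given side by side. In aged hosts 8 peaks differed, 6 higher and 2 lower (12.2% of all peaks, 4.35% and 7.87%), or 5 without Dusp5 Tterm replicate 1 or OTC Ttran replicate 2. Here too only the share that rose exceeded that of all peaks, while the share that fell was below it. All 4 Gzmk peaks were higher: 0.21 (SE 0.063) at 12.4 kb downstream, 0.31 (SE 0.075) at 10.8 kb downstream, 0.78 (SE 0.20) at the start and 0.26 (SE 0.078) at 2.5 kb upstream. With the compared groups alone 3 of these calls were lost, all but that at 10.8 kb. The 12.4 kb call was lost without 3 single libraries, up to an adjusted p of 0.0855 by limma without Dusp5 Tterm replicate 1, the start call without OTC Ttran replicate 2, at 0.0777, and the 2.5 kb call without 3 libraries, up to 0.217 without OTC Ttad replicate 1.

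In Dusp5 libraries the Gzmk peak 10.8 kb downstream held 188 and 167 normalized reads in Tprog, 268 and 318 in Ttran, 285 and 324 in Tterm and 199 and 227 in Ttad. These lie above the OTC libraries in Tprog, Tterm and Ttad and overlap them in Ttran. The Gzmc start peak was lower, -0.59 (SE 0.15), and so was the Prf1 peak 8.6 kb downstream, -0.39 (SE 0.061), at 343 to 426 in 8 Dusp5 and 436 to 588 in 8 OTC libraries without overlap. The Gzmb peak 13.9 kb upstream was higher, 0.38 (SE 0.11). The Gzma start peak, at -0.09 (SE 0.090), did not pass. The Lamp1 start peak was higher by 0.35 (SE 0.11, limma adjusted p = 0.0246), lost without 8 single libraries, up to 0.131 without Dusp5 Tterm replicate 1.

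In young hosts 2 peaks differed with Dusp5, both lower (3.82% of all peaks, 1.8% higher and 2.02% lower): Gzmk 2.5 kb upstream, -0.28 (SE 0.080), and Nkg7, -0.14 (SE 0.034). The first was lost without 10 single libraries, up to an adjusted p of 0.102 by limma without OTC Tprog replicate 2, and the second with quantile normalization, at 0.377. The count was 1 without any one of 8 libraries: Dusp5 Tprog replicates 1 and 2, Dusp5 Tterm replicates 1 and 3, Dusp5 Ttran replicate 2, OTC Tprog replicate 2, OTC Tterm replicate 3 and OTC Ttran replicate 2. The difference between ages was again taken over Tprog, Ttran and Tterm alone. It passed at 3 peaks, 2 higher and 1 lower in aged hosts (4.0% of all peaks, 1.27% and 2.73%). These were Gzmk 10.8 kb downstream, 0.38 (SE 0.12), Gzmk 2.5 kb upstream, 0.48 (SE 0.12), and Prf1 8.6 kb downstream, -0.38 (SE 0.094). The first was lost without 18 single libraries, up to 0.11 without aged Dusp5 Ttran replicate 2.

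Marker lists moved with the guides as well. In aged hosts the myeloid list summed to 1308 to 1473 in OTC, 1402 to 1634 in Zfp219 and 1300.4 to 1450.4 in Dusp5 libraries, and the CD8 list to 19953 to 20492, 19300 to 20092 and 17980 to 19421. Their part in the guide results was not tested.

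**Figure D5:**
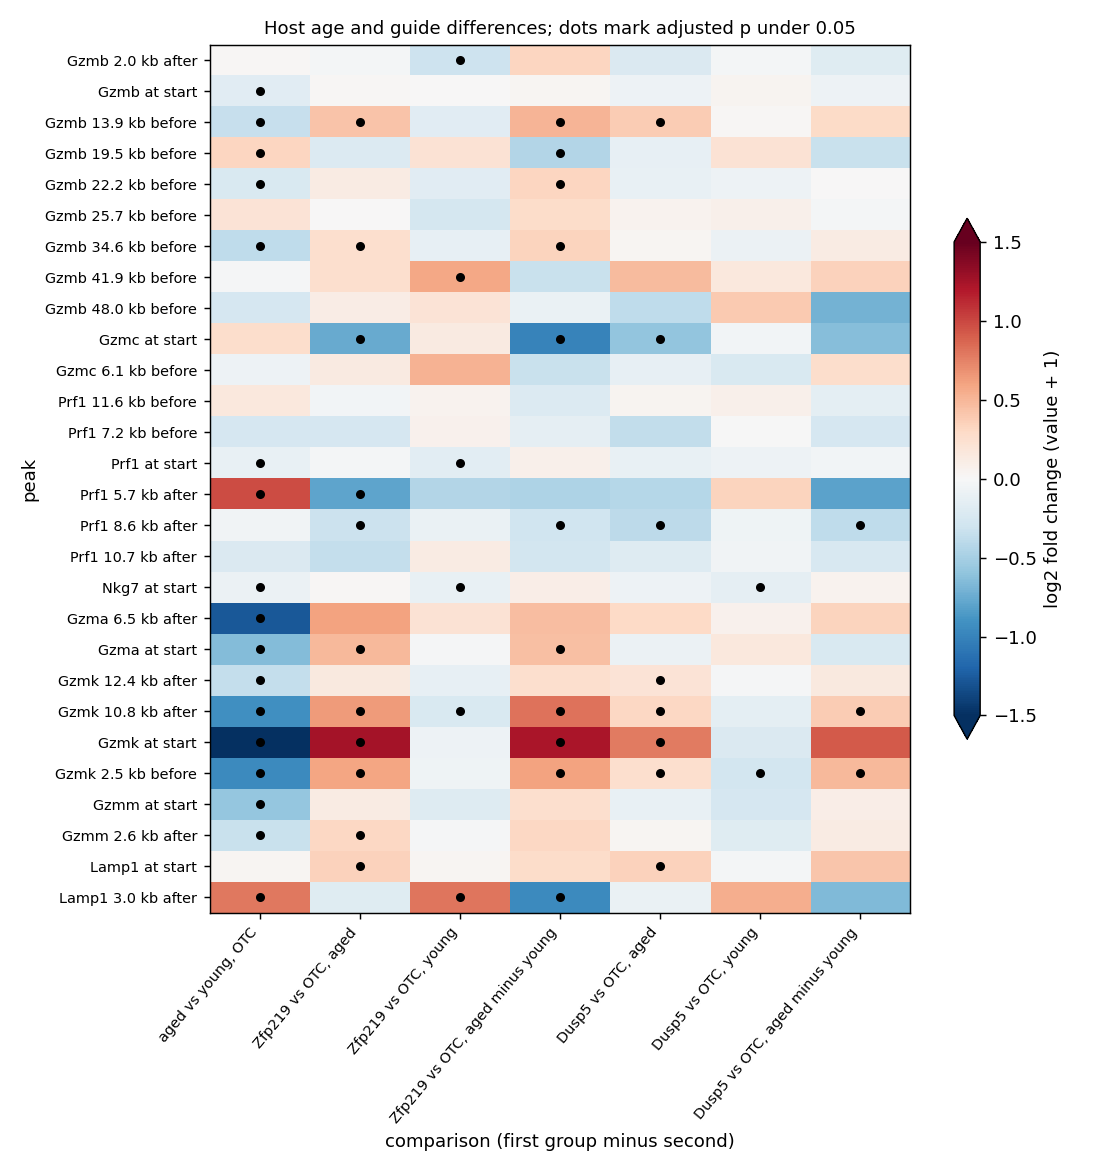
Log2 fold change on the log2(value + 1) scale (colour, limited to -1.5 to 1.5) of the 28 peaks (rows) in the comparisons of host age and of guides (columns, first group minus second, or aged minus young for a difference of fold changes); a dot marks a limma adjusted p under 0.05. The Gzmk rows are blue in the age column, down to -1.75 at the start peak. They are red in the columns of both guides in aged hosts, at 1.25 and 0.78 for the start peak. These columns share the aged OTC libraries of Tprog, Ttran and Tterm and are not independent. Columns of an aged minus young guide difference leave out aged Ttad, which the aged guide columns include.

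Within aged Ttad alone, where each guide has 2 libraries, the Zfp219 guide gave 6 higher and 0 lower peaks (8.23% of all peaks, 3.66% and 4.56%). The Gzmk peak 10.8 kb downstream was higher by 0.81 (SE 0.15, limma adjusted p = 8.9e-05), that 2.5 kb upstream by 0.76 (SE 0.16) and the start peak by 1.54 (SE 0.41), from 13.4 and 14.8 to 45.8 and 40.1 normalized reads. The Gzma start peak was higher by 0.69 (SE 0.18), at 283 and 294 against 166 and 192, and the Gzmb peaks 13.9 and 34.6 kb upstream by 0.72 (SE 0.21) and 0.38 (SE 0.11). Without OTC Ttad replicate 1 the count was 1 and without Zfp219 Ttad replicate 1 it was 3. The lone library of an arm was then assumed to vary like the other groups. Every call but that of the Gzmk peak 10.8 kb downstream was lost in at least 1 such fit. The Gzmb calls 13.9 and 34.6 kb upstream were lost in 4 and 3 of the 4 such fits. Without OTC Ttad replicate 1 the log2 fold change was 0.58 for Gzma and 0.33 for the Gzmk peak 2.5 kb upstream. Without Zfp219 Ttad replicate 2 it was 0.69 and 0.23 for these Gzmb peaks. With the compared groups alone both Gzmb calls and that of the Gzmk start were lost. Quantile normalization lost the Gzmb call 34.6 kb upstream.

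For Dusp5 in aged Ttad, 2 Gzmk peaks were higher and 0 lower (2.88% of all peaks, 1.21% and 1.67%), 0.43 (SE 0.13) at 12.4 kb downstream and 0.54 (SE 0.15) at 10.8 kb downstream. Neither was called by edgeR's quasi-likelihood test, which gave 0 calls and 5 peaks with an unadjusted p under 0.05. By limma the count was 0 without Dusp5 Ttad replicate 2 or OTC Ttad replicate 1, with 4 and 3 peaks at an unadjusted p under 0.05, and 1 without Dusp5 Ttad replicate 1.

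Summed over the peaks of each gene, the order of the 21 groups differed from gene to gene. Gzmb was highest in young OTC Tterm (3615 ± 78.9 normalized reads, SD, n = 3), the 6 Tterm groups were among the highest 9, and Tprog groups took the 6 lowest places, down to 2113 ± 7.42 (n = 2) in aged OTC Tprog. The 2 groups just under the highest, aged Zfp219 Tterm (3509.7 ± 47.7, SD, n = 2) and young Dusp5 Tterm (3507 ± 37.7, SD, n = 3), differed from each other by less than their SDs. Prf1 ran from 2681 ± 51.9 in aged OTC Tterm to 1618 ± 42.9 in aged Zfp219 Tprog (SD, n = 2 each), and Gzmc from 224 ± 7.15 in aged OTC Tterm to 66.4 ± 24.2 in young Dusp5 Tprog (SD, n = 2 each).

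Gzmk was highest in young OTC Tterm (1564 ± 42.6, SD, n = 3) and young OTC Ttran (1551 ± 142, SD, n = 3), which differed by less than their SDs, and lowest in aged OTC Tprog (621 ± 15.1, SD, n = 2) and aged OTC Ttad (639.9 ± 91.6, SD, n = 2), which differed by less than the SD of the latter. The single aged group among the highest 8 was Zfp219 Ttran, at 1412 ± 58.3 (SD, n = 2). Gzma ran from 408 ± 34.3 in young Dusp5 Tterm (SD, n = 3) to 151 ± 20.4 in aged OTC Tprog (SD, n = 2), and Lamp1 from 395 ± 58.6 in aged Dusp5 Tprog (SD, n = 2) to 179.9 ± 3.69 in young OTC Ttran (SD, n = 3). Gzmm ran from 540.2 ± 8.99 in young OTC Tprog to 284 ± 5.47 in aged Dusp5 Tprog (SD, n = 2 each), and Nkg7 from 2601 ± 149 in young OTC Ttran (SD, n = 3) to 1826 ± 0.14 in aged Dusp5 Tprog (SD, n = 2).

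Across the 21 group means, which share libraries, scaling and cell source, Pearson's r of the summed log2 values was 0.91 between Gzmb and Prf1, 0.87 between Gzmc and Prf1 and 0.85 between Gzma and Gzmk. Between Lamp1 and the other 7 it was negative, from -0.55 with Gzma to -0.82 with Prf1. Among 12486 genes with peaks, the most similar to Gzmb were Ccl4 (r = 0.98), Ptafr (0.98) and Id2 (0.98). For Prf1 they were Dscam (0.97), Cmtm7 (0.97) and Ctsd (0.96), for Gzmk Spatc1 (0.95), Fam3b (0.94) and Acod1 (0.94), and for Gzma Elf4 (0.94), Mrvi1 (0.94) and Oplah (0.94). For Gzmc they were Abr (0.93), Cd300a (0.91) and Fancc (0.91), for Nkg7 Tpst2 (0.93), Capn2 (0.93) and Sv2c (0.92), for Gzmm Jakmip1 (0.88), Traf3ip3 (0.86) and Bicd2 (0.84), and for Lamp1 Sgta (0.85), Tmem63b (0.85) and Adgrl1 (0.85). These are descriptions over group means.

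The other genes of the granule pathway were counted as lists. Of 64 peaks of 10 genes that carry and fuse granules (Rab27a, Unc13d, Stx11, Stxbp2, Vamp2, Vamp8, Snap23, Sytl2, Lyst and Ap3b1), 4 were higher and 26 lower in aged Tprog than Tterm (median -0.18), and 7 and 24 in young hosts (median -0.16). Over all peaks 16.9% were higher and 19% lower in aged and 24.3% and 24.9% in young Tprog, shares that apply to each list that follows. The largest fall in aged hosts was at Sytl2, which links granules to Rab27a, -2.52 (SE 0.28). Of 22 peaks of 8 granule-maturation genes, 4 were higher and 2 lower in aged and 9 and 2 in young Tprog, so that the aged counts were near those shares or below them. The largest rise was a log2 fold change of 1.425 (SE 0.26) in aged hosts at Cst7, an inhibitor of the cathepsins that activate granzymes. Of 6 peaks of Serpinb9 and Serpinb6b, protease inhibitors of which the first protects the cell from its own granzyme B, 0 were higher and 5 lower in aged and 0 and 4 in young Tprog. For the death ligands Fasl and Tnfsf10, 2 of 30 peaks were higher and 8 lower in aged and 9 and 10 in young Tprog.

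The cluster neighbours were also counted by host age and guide, in comparisons that share the OTC libraries of Tprog, Ttran and Tterm and are not independent. In OTC cells 4 of the 9 peaks of Gzmd, Gzme, Gzmf and Gzmn were higher in aged hosts and 0 lower (17.3% and 19.1% of all peaks, median of the 9 0.77), while all 4 Gzmk peaks were lower. With the Zfp219 guide in aged hosts 0 were higher and 4 lower (12.1% and 13.7% of all peaks, median of the 9 -0.66), the largest at Gzmf, -1.235 (SE 0.26), and with Dusp5 0 and 6 (4.35% and 7.87%, median -0.98), the largest at Gzmd, -1.33 (SE 0.26). In young hosts limma called 0 of the 9 with either guide; 4 with Zfp219 and 2 with Dusp5 had an unadjusted p under 0.05, and edgeR called 1 with each. The young medians were 0.26 with Zfp219 and 0.34 with Dusp5.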

How the data were processed

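ATAC-seq was measured in 48 libraries of sorted CD8 T cells. The deposited table holds a signal per peak and library, which per the file's values is a whole number of reads divided by 1 size factor per library: all values (100%) came out whole within 0.01 reads. Bowtie2 2.2.9, Picard 2.8.0, SAMtools 1.3.1, MACS2 2.1.1, DESeq2 1.28.1 and the build mm10 are named, per the submitters' processing notes; their order and settings are not given in the sources used here. The authors' single peak set was used for every library. Such scaling makes libraries comparable only if most peaks keep their level.

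From these values log2(value + 1) was computed, and limma 3.58.1 (R 4.3.3) fitted 21 group means to all 48 libraries, with a moderated variance that follows the mean. Benjamini-Hochberg adjustment ran over all 53868 peaks for each of 19 comparisons, with a threshold of 0.05. Comparisons of states are means over the 3 guides. A fold change is on the log2(value + 1) scale and understates the change of weak peaks. Standard errors and p-values measure the spread between libraries of a group; whether these came from separate sets of mice is not given in the sources used here, so the spread may be partly technical. Libraries held 5638413 to 29942755 reads in peaks (median 14691505).

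Alternatives were a pseudocount of 8, leaving out the weakest 25% of peaks, quantile normalization, edgeR 4.0.16 (quasi-likelihood test, TMM) on the recovered whole reads, the compared groups alone, a replicate block and leaving out each library in turn. The fits were tested on simulated data. Genes were assigned within 100000 bases from RefSeq gene models (GRCm38.p6). The genes, lists and comparisons were chosen with earlier results of these data known. The rule for peaks to describe took each gene's peak with the most reads, its start peak and the largest called change in each direction; other peaks of the 8 genes were named after their values were seen.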

Additional observations from a re-analysis of the deposited data

Results flagged for a closer look

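In 19 cases a difference between states or guides was not the same in aged as in young hosts, by the test of that difference itself (limma adjusted p under 0.05). All values are aged minus young differences of log2 fold changes, and their causes were not tested. Those of the guides were taken over Tprog, Ttran and Tterm, without aged Ttad.

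For Tprog against Tterm 5 of 28 peaks passed (17.9%, against 11.8% of all peaks). The difference was -0.23 at the Prf1 start, -0.72 at the Gzmm start, -0.31 at the Gzmk peak 12.4 kb downstream, -0.32 at the Gzmb peak 34.6 kb upstream and -0.17 at Nkg7. With quantile normalization the Prf1 and Nkg7 calls were lost (limma adjusted p of 0.0704 and 0.803). The Gzmk call was lost with the replicate block and without 5 single libraries.

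For the Zfp219 guide against OTC 11 of 28 peaks passed (39.3%, against 9.11% of all peaks). The Gzmk differences were 0.82 at 10.8 kb downstream, 1.22 at the start and 0.61 at 2.5 kb upstream, and the Gzma start had 0.45. The Gzmk start call was lost without 1 single library and the Gzma call without 8. Within Gzmb the upstream peaks went both ways: 0.50 at 13.9 kb, -0.43 at 19.5 kb, 0.32 at 22.2 kb and 0.33 at 34.6 kb. Of these the calls at 13.9, 19.5 and 22.2 kb were lost without 11, 6 and 1 single libraries, with limma adjusted p up to 0.126 without young Zfp219 Tprog replicate 1, 0.069 without aged OTC Tterm replicate 1 and 0.0681 without young OTC Tprog replicate 2. The Gzmc start had -1.01 and the Lamp1 peak 3.0 kb inside the gene -0.96. The Prf1 peak 8.6 kb downstream had -0.30, lost without 7 single libraries, up to 0.0885 without aged OTC Tterm replicate 1.

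For the Dusp5 guide, which is compared with the same OTC libraries, 3 of 28 peaks passed (10.7%, against 4.0% of all peaks). The differences were -0.38 at the Prf1 peak 8.6 kb downstream, 0.38 at the Gzmk peak 10.8 kb downstream and 0.48 at the Gzmk peak 2.5 kb upstream. The call at the Gzmk peak 10.8 kb downstream was lost without 18 single libraries.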

How the results depend on the processing

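No result reversed under any alternative. Of 197 called pairs of a peak of the 8 genes and a comparison, 136 were called under every alternative that tested them; 3 pairs were not tested without the weakest 25% of peaks. Of 114 counts under alternatives other than leaving out a library, 103 stayed within 1.5 times. The others were, for Ttran against Tterm in young hosts (3), 6 without the weakest peaks, 5 with quantile normalization and 6 with the compared groups alone. With quantile normalization the count was 3 for the aged minus young difference of Tprog against Tterm (5), 2 for Zfp219 in young (6) and 1 for Dusp5 in young hosts (2). With the compared groups alone it was 5 for Dusp5 in aged hosts (8), 3 for Zfp219 in aged Ttad (6) and 0 for Dusp5 in aged Ttad (2), where 3 peaks had an unadjusted p under 0.05 by limma. With edgeR it was 5 for the aged minus young difference of Dusp5 (3) and 0 for Dusp5 in aged Ttad (2), where 5 peaks had an unadjusted p under 0.05. Beyond the smaller number of libraries in the fits of compared groups, the cause was not tested.

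Leaving out single libraries gave, in aged hosts, 18 to 22 calls for Tprog against Tterm, 17 to 20 for Ttran against Tprog, 1 to 7 for Ttran against Tterm, 11 to 13 for Ttad against Tprog, 5 to 8 against Ttran and 8 to 13 against Tterm. In young hosts it gave 23 to 25, 20 to 23 and 2 to 6 for the first 3 of these, and 4 to 6 for the difference between ages. It gave 14 to 18 for host age. For Zfp219 it gave 10 to 14 in aged hosts, 3 to 6 in young hosts, 7 to 12 for the difference and 1 to 4 in aged Ttad; for Dusp5, 5 to 10, 1 to 3, 2 to 4 and 0 to 2.

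Replicate numbers did not pair the libraries: same-numbered libraries of different groups had deviations correlated at -0.018 to 0.023, none over 0.1. With the replicate block the counts were 22, 18, 5, 12, 8 and 13 for the aged state comparisons in the order above, 24, 21 and 3 for the young ones, 4 for their difference and 17 for host age. They were 11, 5, 11 and 6 for Zfp219 and 9, 3, 3 and 2 for Dusp5 (aged, young, difference, aged Ttad).

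Among all called peaks, the share that were higher moved from 38.3% to 48.4% with quantile normalization for the aged minus young difference of Tprog against Tterm, and from 42.1% to 53.0% with quantile normalization and 31.2% with edgeR for Dusp5 in aged Ttad. Weak peaks, such as the Gzmk start, rest on few reads per library.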
